A study of Homo sapiens with 12 samples.

Results

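H3K18ac regions of 1000 to 2900 bp in IMR90 fibroblasts that overlap no H3K18ac region of H1 embryonic stem cells are described here. They were chosen from 2 deposited lists of regions, by their length in the IMR90 list and by the lack of a 1 bp overlap with the H1 list. The rule was met by 7183 of the 84471 IMR90 regions (8.50%, Wilson 95% interval 8.32 to 8.69), out of 169273 regions in the 6 lists of the series. They are called IMR90-only mid-width regions below, and their closest comparison is the 2215 IMR90 regions of the same lengths that do overlap an H1 region. All positions are in the build hg19 and count both ends of a region.

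The study set DNA synthesis beside histone acetylation in 3 human cell lines. IMR90 primary lung fibroblasts, at passages 7 to 12 in DMEM with serum, and H1 embryonic stem cells, at passages 35 to 45 in mTESR1, received no siRNA for the H3K18ac immunoprecipitations, which each used 5000000 cells and the same custom antibody. Newly made DNA that had taken up bromodeoxyuridine (BrdU), which stands in for thymidine, was captured and sequenced from untreated IMR90, from untreated Saos-2 osteosarcoma cells, and from H1 with a non-targeting siRNA (H1 control) or with siRNAs against EP300 and CREBBP (H1 knockdown). Both H1 cultures for BrdU also received 10 µM of the compound named in the labels as HA 1077 and were collected at 72 h, so they differ in treatment from the H1 cells of the H3K18ac list. Each group had 1 library, so no test between groups was possible, no p-values are given, and intervals cover counting error alone. Regions close to each other depend on each other, which makes these intervals too narrow. The depth of the libraries is unknown, and a region missing from a list may have lain just below its threshold.

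H3K18ac is histone H3 that carries an acetyl group on a lysine of its tail. It is laid down mainly by the paralogous acetyltransferases p300 and CBP, the products of EP300 and CREBBP, and is found at active promoters and enhancers. Enhancers are the part of this landscape that differs most between cell types, and in differentiated cells they often lie in arrays of neighbouring acetylated stretches. Genes, promoters and marker genes at the regions were not analysed here, since no hg19 annotation or sequence was used, so the regions are given by position.

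IMR90-only mid-width regions were a small class by number but made up much of the acetylated length. They covered 10.3 Mb, or 26.2% of the 39.5 Mb of the IMR90 list. Their median length was 1300 bp, with the middle 50% between 1100 and 1700 bp, and there were 1302 regions of 1000 bp and 46 regions of 2900 bp. By length class, 4544 regions (63.3%) measured 1000 to 1400 bp, 1622 (22.6%) measured 1500 to 1900 bp and 1017 (14.2%) measured 2000 to 2900 bp. Just outside the limits lay 1704 IMR90-only regions of 900 bp and 39 of 3000 bp. Of all 9398 IMR90 regions of 1000 to 2900 bp, 76.4% had no H1 overlap.

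The absence of an H1 counterpart became less frequent with length, up to 4900 bp. Among IMR90 regions of 100 to 200 bp, 90.1% had no H1 overlap. The share was 78.7% (77.6 to 79.7) at 1000 to 1400 bp, 74.0% (72.1 to 75.8) at 1500 to 1900 bp, 71.2% (68.8 to 73.5) at 2000 to 2900 bp and 61.2% (57.0 to 65.3) at 3000 to 4900 bp, while the 106 regions of 5000 bp and over had a share of 71.7% (62.5 to 79.4). A longer region offers more bases for an overlap, and the shares were not corrected for length. These values come from the lists that chose the regions and are a description.

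The authors' score, whose meaning is not stated in the files, placed IMR90-only mid-width regions high in the IMR90 list. Their median score was 317, against 46 in the whole list, and 98.1% of them ranked in its upper 20% by score. So did 99.4% of the mid-width regions that overlapped H1 and 100% of the IMR90-only regions wider than 2900 bp. The score rises with length, with a Spearman correlation of 0.957 over the whole list and 0.726 across these regions. The high rank of the class therefore cannot be told apart from its length limit. The median score was 215 at 1000 bp and 847.5 at 2900 bp, beside 186 at 900 bp and 804 at 3000 bp just outside the limits. Divided by the number of 100 bp windows in the region, the median score was 23.5, against 16 in the whole list and 27.2 in the mid-width regions that overlapped H1. At each length class the regions with an H1 overlap also had the higher median score, with 304 against 259 at 1000 to 1400 bp, 463 against 409 at 1500 to 1900 bp and 729.5 against 624 at 2000 to 2900 bp. The middle 50% of scores ran from 232 to 456 without and from 281 to 574.5 with an H1 overlap, so the classes overlapped widely.

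**Figure D1:**
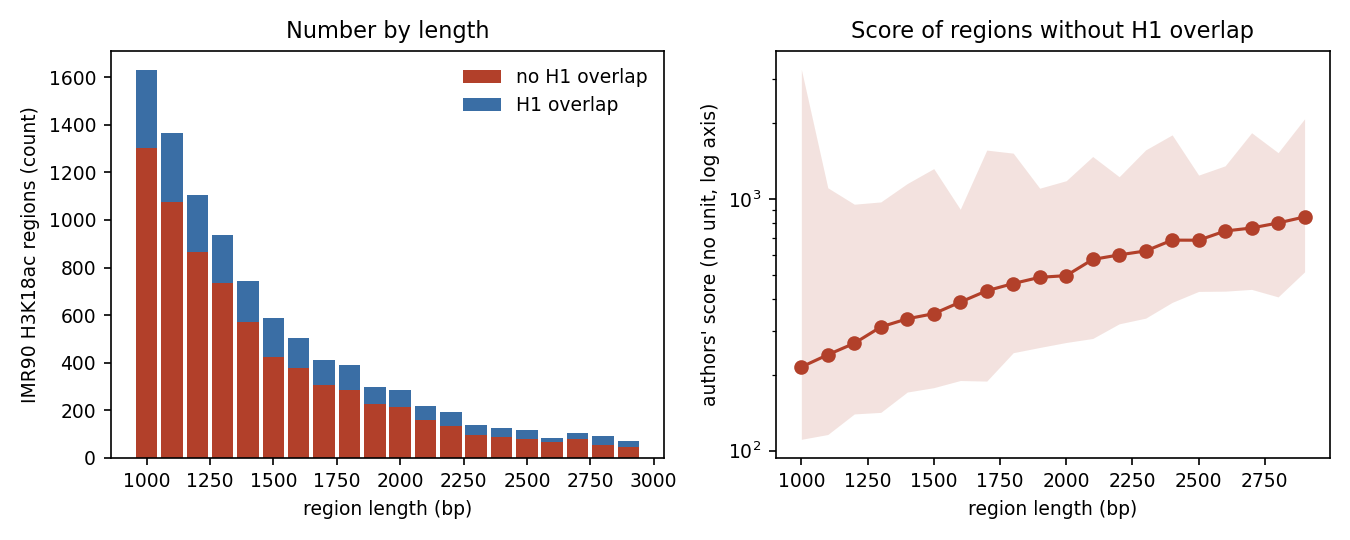
Left, number of IMR90 H3K18ac regions at each length from 1000 to 2900 bp, divided into those without (red) and with (blue) an overlapping H1 region. Right, the authors' score of regions without H1 overlap on a log axis, with the median as points and the lowest to highest score as the shaded band. Numbers fall from 1302 red regions at 1000 bp to 46 at 2900 bp while the median score rises from 215 to 847.5.

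The 10 IMR90-only mid-width regions of highest score lay on 9 chromosomes, and their place in the IMR90 list ranged from 14 to 239. The first, chr6:58778201-58779200, was only 1000 bp long yet had a score of 3268, and its nearest H1 H3K18ac region was 1292.4 kb away. The second, chr15:71084801-71087700, was 2900 bp long with a score of 2078 and lay 29.5 kb from the nearest H1 region. The third, chr15:40631401-40634100, had a score of 1829 and directly adjoined an H1 region, with a gap of 0. It counts as IMR90-only by the letter of the rule alone.

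Positions 4 to 10 by score were held by chr20:33893901-33896300, chr12:105648401-105650700, chr3:141124201-141125900, chr18:71356701-71359500, chr4:7844601-7846400, chr16:56639301-56642200 and chr2:201271001-201273100. Their scores ranged from 1794 to 1472. Their nearest H1 regions lay between 2.5 kb, for the region on chromosome 3, and 74.3 kb, for that on chromosome 12. In 9 of the 10 regions another IMR90 region began within 500 bp. The exception was the region on chromosome 6, whose nearest neighbour was 600 bp away. Of the 10, the region on chromosome 3 overlapped a BrdU region, in the H1 control list.

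How far the nearest H1 H3K18ac region lay varied widely. The median gap was 20.4 kb, the middle 50% lay between 6 and 54.65 kb, and 5% lay farther than 185.29 kb. An H1 region lay within 1 kb of 605 (8.42%, 7.80 to 9.09) and within 10 kb of 2507 (34.9%, 33.8 to 36.0). Over all IMR90 regions, which include those that overlap H1, these shares were 24% and 46.9%. The edge of the rule was soft on both sides: 47 IMR90-only mid-width regions touched an H1 region end to end, and 523 of the 2215 regions with an overlap (23.6%) shared a single 100 bp window with H1. The H1 regions within 1 kb of an IMR90-only region were much like the H1 list as a whole. The nearest H1 region was taken for each of the 605, so an H1 region nearest to several of them was counted each time. Of these 605 entries, 55.0% spanned a single window, against 53.7% of the H1 list, and 50.4% were in the upper 50% of that list by score.

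The score in IMR90 differed little with the distance to H1. The median score was 329 for the 605 regions with an H1 region up to 1 kb away, 322.5 for the 1902 at 1 to 10 kb, 318 for the 2734 at 10 to 50 kb and 309 for the 1942 at over 50 kb. The median length was 1300 bp in all 4 groups.

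IMR90-only mid-width regions rarely stood alone. Another IMR90 H3K18ac region lay within 1 kb of 6888 of them (95.9%, 95.4 to 96.3), against 75.7% over all IMR90 regions and 83.9% (82.3 to 85.4) of the mid-width regions that overlapped H1. The median gap to the neighbour was 400 bp, close to the smallest gap in the lists, 300 bp. It was also 400 bp for the mid-width regions that overlapped H1 and for the IMR90-only regions wider than 2900 bp. In these wider regions the 95th percentile of the gap was 700 bp, against 900 bp in the mid-width class, so close neighbours are not particular to it. The profile of the IMR90 list around the midpoints of IMR90-only mid-width regions showed the neighbours as shoulders. At 1.5 kb from the midpoint, 44.8% of them upstream and 44.7% downstream had an IMR90 region, here meaning lower and higher coordinates. The share fell to 16.3% and 15.9% at 5 kb and to 8.19% and 7.60% at 20 kb. Around mid-width regions with an H1 overlap the shoulders were lower, with 31.6% and 33.8% at 1.5 kb, 10.0% and 11.5% at 5 kb, and 6.46% and 6.09% at 20 kb.

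The H1 list behaved differently over the same distances. At 1.5 kb from the midpoints of IMR90-only regions, 1.03% and 1.10% of positions lay in an H1 region, and at 20 kb 0.738% and 0.682% did. Around mid-width regions with an H1 overlap it was 12.9% and 10.97% at 1.5 kb and still 1.99% and 2.26% at 20 kb. Over all IMR90 regions the H1 values were 2.28% and 2.304% at 1.5 kb and 0.932% and 0.922% at 20 kb. The H1 list chose both classes, and an H1 region that overlaps a mid-width region can reach past its edge, so these H1 values are a description and the centre of the profiles is set by the rule.

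**Figure D2:**
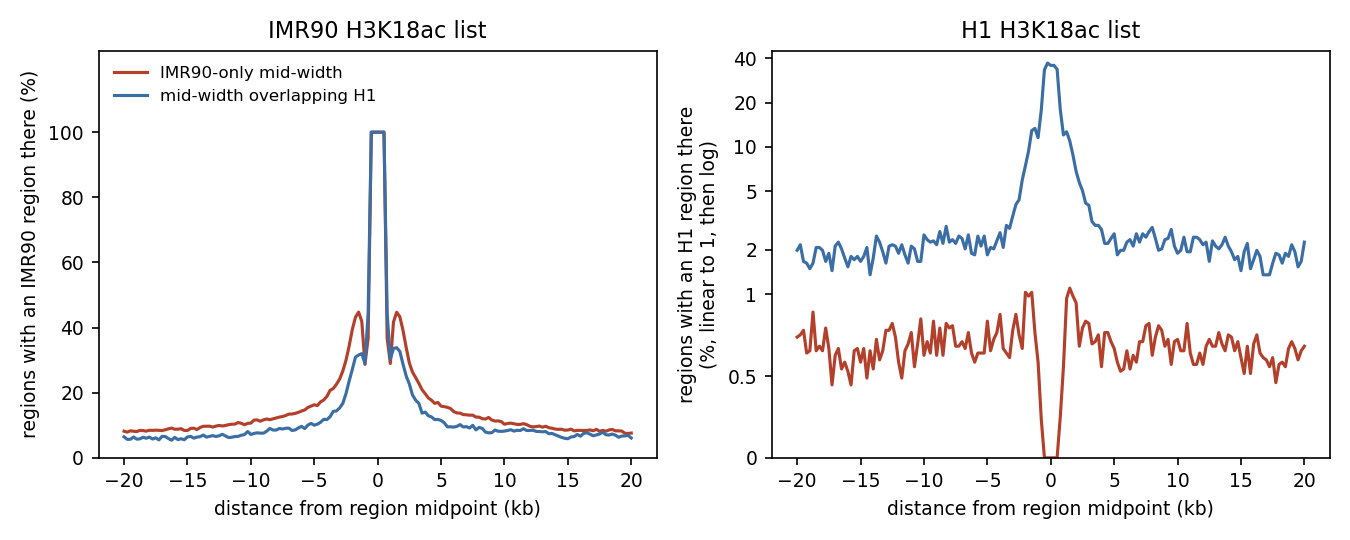
Share of regions with an IMR90 (left) or H1 (right) H3K18ac region at each distance from the region midpoint, in steps of 0.25 kb up to 20 kb to either side, for 7183 IMR90-only mid-width regions (red) and 2215 mid-width regions overlapping H1 (blue). The right axis is linear up to 1% and logarithmic above. The red shoulders at 1.5 kb reach 44.8% in the IMR90 list, while in the H1 list the red line is near 1% at the same distance and 0 at the centre by construction.

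When IMR90 regions separated by up to 1 kb were joined into domains, the 7183 regions fell into 5165 of 42641 domains. The median length of these domains was 3700 bp, against 600 bp for domains without such a region. Of the 7183, 3525 (49.1%, 47.9 to 50.2) shared their domain with another IMR90-only mid-width region, 583 (8.12%) with a region wider than 2900 bp, and 481 (6.70%) with a mid-width region that overlapped H1. A further 2935 (40.9%) were accompanied by narrower regions alone, and 295 (4.11%) had no other region in their domain. Domains with 1 such region numbered 3658, those with 2 numbered 1158, and 41 held 5 or more.

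Most of these domains were free of H1 H3K18ac along their whole length. This was so for 6147 of the 7183 regions (85.6%, 84.7 to 86.4). The remaining 1036 (14.4%) were without H1 overlap themselves but belonged to an acetylated domain that met H1 elsewhere. The share in H1-free domains depended on the joining distance. It was 90.1% for gaps of up to 500 bp, 79.4% for 3000 bp and 64.1% for 10000 bp. The rule keeps H1 out of the part of each domain that such a region covers, so these shares are partly set in advance. Domains without such a region were not counted in this way, and the shares are a description.

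Joining over 10 kb brought out long arrays. Within this distance of another IMR90-only mid-width region lay 4248 of them (59.1%, 58.0 to 60.3). The richest array, chr1:172863901-172947400, was 83.5 kb long and held 45 IMR90 regions, of which 22 were IMR90-only mid-width regions covering 37.3 kb. The IMR90 regions covered 58.2% of it, no H1 H3K18ac region lay in it, and no region of any BrdU list did. Of the 15 richest arrays, 9 had no BrdU region and 3 had no H1 region. How often other stretches of this length lack a BrdU region was not computed. Means per 1 Mb tile with an IMR90 region were 2.21 for IMR90, 1.89 for H1 control, 0.652 for H1 knockdown and 2.24 for Saos-2. These tiles are longer than the arrays. The absence of BrdU regions is thus a description, and whether it sets the arrays apart was not tested. Of all 4164 arrays with an IMR90-only mid-width region, 67.8% had no H1 region, at a median length of 11100 bp.

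The second array, chr2:238063201-238147000, held 18 IMR90-only mid-width regions over 83.8 kb and 1 H1 H3K18ac region. It contained BrdU regions of all 4 lists, with 2 in IMR90, 3 in H1 control, 1 in H1 knockdown and 1 in Saos-2. The third, chr11:12131601-12211300, held 13 over 79.7 kb with 1 H1 region and 1 BrdU region, of Saos-2. The fourth, chr15:33109701-33179700, held 12 over 70 kb and had neither an H1 H3K18ac region nor a BrdU region. IMR90 regions covered 59.6% of its length. Of the arrays with 11, that at chr12:65991301-66070000 was likewise without H1 and BrdU regions.

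Over the genome the regions were unevenly spread. They occurred in 1653 of the 2562 tiles of 1 Mb that held any IMR90 H3K18ac region (64.5%), with a median of 3 per occupied tile. The 168 tiles with 10 or more made up 6.56% of the tiles and held 2453 of the regions (34.2%). The spread of all IMR90 regions over the tiles was not computed in this way. The unevenness therefore cannot be called particular to the class. The 5 richest tiles held between 148 and 174 IMR90 regions of any kind. The richest tile, from 238 to 239 Mb on chromosome 2, held 37 of them, from chr2:238035801-238036900 to chr2:238602201-238603900, among 170 IMR90 and 43 H1 H3K18ac regions. The tile from 39 to 40 Mb on chromosome 15 held 34, from chr15:39001401-39002400 to chr15:39697401-39698500, beside 14 H1 regions. The tile from 52 to 53 Mb on chromosome 5 held 33, from chr5:52104701-52105700 to chr5:52786101-52787600, beside 9 H1 regions. Tiles with 28 each lay on chromosome 11, from chr11:12064201-12065500 to chr11:12922501-12923500, and on chromosome 8, from chr8:119024001-119025600 to chr8:119927801-119929300.

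Over the 2562 tiles with an IMR90 H3K18ac region, the mean number of BrdU regions a tile was 2.21 for IMR90, 1.89 for H1 control, 0.652 for H1 knockdown and 2.24 for Saos-2, and the medians were 1, 1, 0 and 1. The tile on chromosome 2 held 10 BrdU regions of IMR90, 10 of H1 control, 3 of H1 knockdown and 11 of Saos-2. That on chromosome 15 held 3 of IMR90 and 0 of the other lists, and that on chromosome 5 held 1 of H1 knockdown and 0 of the others. The tile on chromosome 11 held 3, 1, 0 and 1 in the same order as the first, and that on chromosome 8 held 1, 0, 0 and 0. The tile from 86 to 87 Mb on chromosome 16, with 27 IMR90-only mid-width regions, was named after its values were seen and held 11, 8, 1 and 15.

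No IMR90-only mid-width region lay on chromosome Y, which was left out of the comparison of chromosomes. Among the autosomes and X, IMR90-only mid-width regions made up between 10.8% (9.98 to 11.6) of the IMR90 regions on chromosome 5 and 4.79% (3.90 to 5.88) on chromosome 19. After chromosome 19 the lowest shares were those of chromosome X, at 4.96%, and of chromosome 22, at 5.83%. Of these chromosomes, 2 held the most, with 727, and X the fewest, with 69. Of the mid-width regions alone, those without H1 overlap ranged from 84.8% (81.3 to 87.8) on chromosome 8 and 84.3% on chromosome 4 to 63.6% on 17, 56.4% on 22 and 51.5% (44.0 to 58.9) on 19.

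The autosomes with the lowest shares without H1 overlap, 19 and 22, were those with the most H1 regions relative to IMR90 regions. There were 1.88 H1 H3K18ac regions per IMR90 region on chromosome 19 and 2.05 on 22, but 0.609 on 8 and 0.537 on 4. Across the 22 autosomes this ratio and the share without H1 overlap had a Spearman correlation of -0.842. Both sides use the same lists, so this is a description of how the H1 list sets the rule, and the correlation has no independent replicates.

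**Figure D3:**
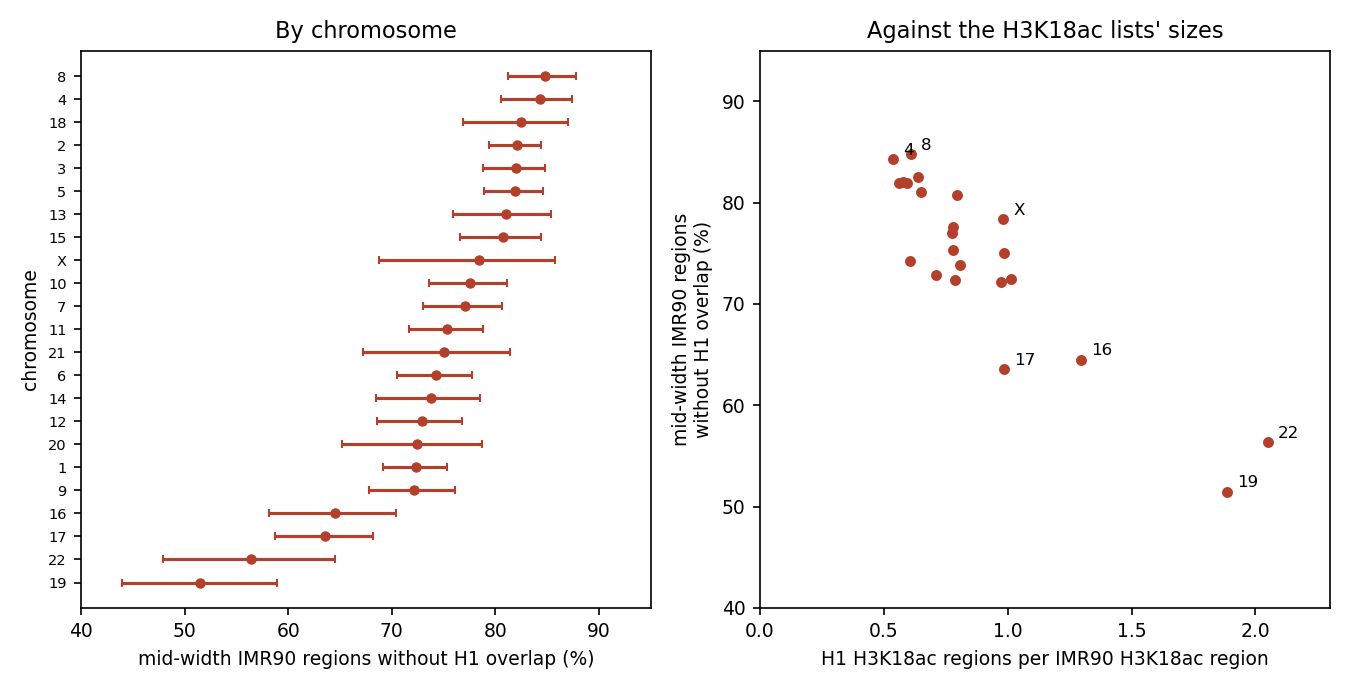
Left, percent of mid-width IMR90 H3K18ac regions without an H1 overlap on each chromosome except Y, with Wilson 95% intervals as bars. Right, the same percent against the number of H1 H3K18ac regions per IMR90 region. Chromosomes 19 and 22, with 1.88 and 2.05 H1 regions per IMR90 region, have the lowest shares, 51.5% and 56.4%, and chromosomes 8 and 4 the highest.

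The rule does not use the BrdU lists, although the class was chosen with earlier results of these data known. The lists held 5743 regions in IMR90, 5086 in H1 control, 1755 in H1 knockdown and 6272 in Saos-2, so shares are compared between classes of H3K18ac region within a list, not between lists. Overlap with a BrdU region was rare in IMR90-only mid-width regions and over all IMR90 H3K18ac regions alike. The BrdU lists cover little of the genome, with 1.22 Mb in IMR90, 1.08 Mb in H1 control, 0.211 Mb in H1 knockdown and 2.06 Mb in Saos-2. A BrdU region of IMR90 overlapped 18 of the 7183 (0.251%, 0.159 to 0.396), against 0.166% over all IMR90 H3K18ac regions. For H1 control the overlap was 27 (0.376%, 0.258 to 0.546) against 0.141%, for H1 knockdown 8 (0.111%, 0.0564 to 0.220) against 0.0426%, and for Saos-2 26 (0.362%, 0.247 to 0.530) against 0.183%. The share of the whole list lay within the interval of the class for IMR90 BrdU and below it for the other lists. All IMR90 H3K18ac regions have a median length of 300 bp, and a longer region has more bases to overlap. IMR90-only mid-width regions with an H1 region within 10 kb were also left out, which gave 6 of 4676 (0.128%) for IMR90 and for H1 control. These shares lay below those of the whole list. The filtered shares of H1 knockdown, 4 of 4676 (0.0855%, 0.0333 to 0.220), and Saos-2, 10 of 4676 (0.214%, 0.116 to 0.393), lay above them. For IMR90 and H1 control the interval was 0.0588 to 0.280. In every BrdU list the share of the whole list lay within the interval of the filtered regions. The whole list was not filtered in this way, and 46.9% of its regions had an H1 region within 10 kb. The sets are thus unlike, and the filtered shares do not decide the direction against the whole list.

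At matched length limits the regions with an H1 counterpart overlapped BrdU more often. The shares were 0.722% (0.445 to 1.17) for IMR90 BrdU, 0.813% (0.515 to 1.28) for H1 control, 0.226% (0.0965 to 0.527) for H1 knockdown and 1.08% (0.729 to 1.61) for Saos-2. The intervals of the 2 classes did not meet for IMR90 and Saos-2, met narrowly for H1 control, and overlapped widely for H1 knockdown. Within the central 500 bp the order was the same in every list, but the intervals of the classes overlapped in all 4, with 2 to 15 overlapping IMR90-only regions a list. IMR90-only regions had 4 overlaps with IMR90 BrdU there (0.0557%, 0.0217 to 0.143) and those with an H1 counterpart 6 (0.271%, 0.124 to 0.590). The median lengths of the classes were 1300 and 1400 bp.

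Within 10 kb a BrdU region of IMR90 was found for 4.61% (4.15 to 5.12) of the IMR90-only mid-width regions, against 5.23% over all IMR90 regions and 7.72% (6.68 to 8.91) of those with an H1 counterpart. The values in the same order were 5.33%, 4.85% and 8.58% for H1 control, 2.13%, 1.86% and 2.302% for H1 knockdown, and 4.98%, 4.88% and 8.80% for Saos-2. Between regions without and with an H1 counterpart the intervals did not meet for IMR90, H1 control and Saos-2. For H1 knockdown they overlapped widely, with 1.82 to 2.49 and 1.76 to 3.01.

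Farther out the shares of IMR90-only mid-width regions were below those of regions with an H1 counterpart in every list. A BrdU region of IMR90 lay within 50 kb of 17.2% (16.4 to 18.1) of the IMR90-only mid-width regions, of 27.9% (26.1 to 29.9) of those with an H1 counterpart, and of 19% of all IMR90 regions. For H1 control BrdU the shares were 18.2% (17.3 to 19.1), 30.6% (28.7 to 32.6) and 19%, and for Saos-2 16.2% (15.4 to 17.1), 27.1% (25.3 to 29.0) and 17.4%. For H1 knockdown they were 8.09% (7.48 to 8.74), 10.97% (9.74 to 12.3) and 8.3%. At 50 kb IMR90-only mid-width regions were thus slightly below the share of the whole list, and those with an H1 counterpart lay above it. For H1 control and H1 knockdown the share of the whole list lay within the interval of the IMR90-only regions. At 10 kb the IMR90-only regions lay below the whole list for IMR90 BrdU alone. The median distance to the nearest IMR90 BrdU region was 235.2 kb for IMR90-only mid-width regions and 122.9 kb for those with an H1 counterpart. The order held in each length class. For IMR90 BrdU within 50 kb it was 17.2% against 27.8% at 1000 to 1400 bp, 16.8% against 28.4% at 1500 to 1900 bp and 18.1% against 27.7% at 2000 to 2900 bp.

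**Figure D4:**
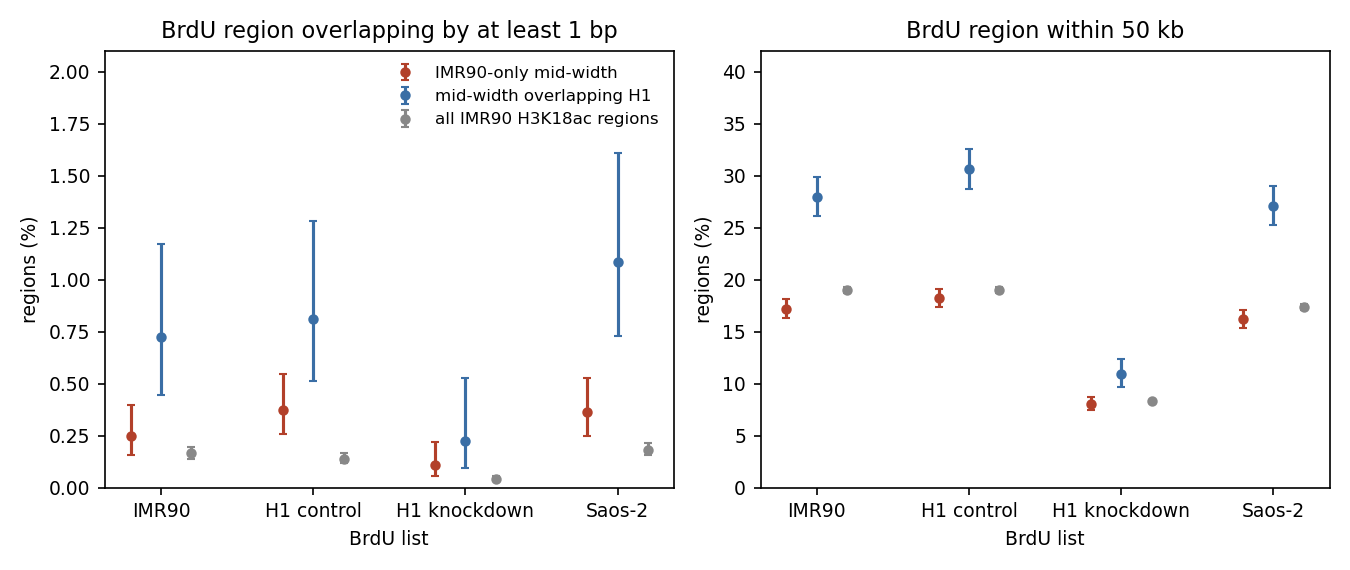
Share of H3K18ac regions with an overlapping BrdU region (left) or a BrdU region within 50 kb (right) for each of the 4 BrdU lists. Points are IMR90-only mid-width regions (red), mid-width regions overlapping H1 (blue) and all IMR90 H3K18ac regions (grey), and bars are Wilson 95% intervals for counting error only. At 50 kb the red and grey points lie close together in every list, and the blue points lie above both.

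Within the IMR90-only mid-width class, BrdU regions were found more often the nearer an H1 H3K18ac region was. Of the 605 regions with an H1 region up to 1 kb away, 35.4% (31.7 to 39.3) had an IMR90 BrdU region within 50 kb. The share was 26.3% (24.4 to 28.3) at 1 to 10 kb, 14.5% (13.3 to 15.9) at 10 to 50 kb and 6.49% (5.48 to 7.67) at over 50 kb. H1 control fell from 37.0% to 5.66% between the nearest and the farthest group, Saos-2 from 30.9% to 5.30% and H1 knockdown from 13.7% to 3.91%. The share in the nearest group was above that of the mid-width regions that overlap H1 (27.9% for IMR90 BrdU), so the order of the classes turned close to the edge of the rule. The intervals of these 2 groups did not meet for IMR90 and H1 control and overlapped for H1 knockdown and Saos-2. Direct overlaps were few in every group, with 5, 7, 3 and 3 for IMR90 BrdU from the nearest to the farthest and 7, 14, 4 and 2 for H1 control. Shares by distance to H1 were not computed for the other IMR90 regions, so this order cannot be called particular to the class. Gene density and base composition were not analysed here, so their part in this order was not tested.

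**Figure D5:**
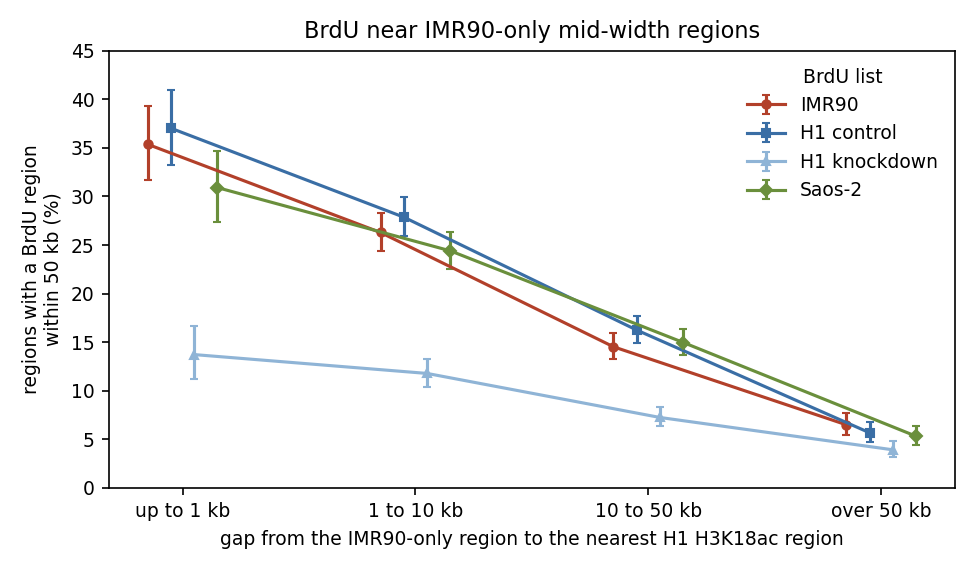
Share of IMR90-only mid-width regions with a BrdU region within 50 kb, by the gap to the nearest H1 H3K18ac region (605, 1902, 2734 and 1942 regions from left to right), for each BrdU list. Bars are Wilson 95% intervals. All 4 lines fall from left to right, that of IMR90 BrdU from 35.4% to 6.49%.

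In all, 61 IMR90-only mid-width regions (0.849%, 0.662 to 1.09) overlapped a region of at least 1 BrdU list, against 0.447% of all IMR90 regions and 2.26% (1.72 to 2.96) of the mid-width regions that overlapped H1. Of the 61, 47 overlapped 1 list, 11 overlapped 2, 2 overlapped 3 and 1 overlapped all 4. Most of the BrdU regions were single windows of 100 bp, with 11 of 18 in IMR90, 20 of 28 in H1 control, 7 of 8 in H1 knockdown and 15 of 26 in Saos-2. The median length over the whole BrdU list was likewise 100 bp in IMR90, H1 control and H1 knockdown, and 200 bp in Saos-2. Shares of single windows over the whole lists were not computed, so this shortness cannot be called particular to the overlapping BrdU regions. The median rank by score of the overlapping BrdU regions was 4114.5 of 5743 in IMR90, 2945.5 of 5086 in H1 control, 739 of 1755 in H1 knockdown and 3969 of 6272 in Saos-2. For IMR90 BrdU, 0 of the 1622 regions of 1500 to 1900 bp had an overlap, which allows a share of up to 0.185%, above the 0.166% of the whole list, and 0 of the 570 regions of that length with an H1 counterpart had one. The 1000 to 1400 bp class had 13 of 4544 and the 2000 to 2900 bp class 5 of 1017.

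The region common to all 4 BrdU lists was chr11:131995401-131996800, which ranked 4315 in the IMR90 H3K18ac list. BrdU regions lay at its lower end, at chr11:131995201-131995500 in IMR90, chr11:131995301-131995700 in H1 control, chr11:131995401-131995600 in H1 knockdown and chr11:131995201-131995700 in Saos-2. The knockdown region ranked 20 of 1755 in its list. The 2 regions in 3 lists were chr7:43237901-43238900 and chr14:77388601-77389700, both shared by IMR90, H1 control and Saos-2. The BrdU region at the former ranked 190 in IMR90, 203 in H1 control and 373 in Saos-2, the strongest found in an IMR90-only mid-width region for the first pair of lists.

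The IMR90-only mid-width regions of highest H3K18ac score with an IMR90 BrdU region were chr4:151155701-151158300, chr20:25289301-25291600, chr13:32329101-32331600, chr6:1392101-1394800 and chr9:93800501-93802600. At the first the BrdU region was the single window chr4:151156601-151156700, which ranked 5580 of 5743. At chr13:32329101-32331600 the same window, chr13:32329401-32329500, was called in IMR90 and in H1 control. For H1 control BrdU the highest were chr3:141124201-141125900, chr2:47101101-47103400, chr20:43966701-43968400, the region on chromosome 13 shared with IMR90, and chr11:13281701-13283200.

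For H1 knockdown BrdU the 5 highest were chr2:47107101-47109200, chr5:56734301-56737200, chr9:114822201-114823500, the region on chromosome 11 common to all lists, and chr9:116363401-116365300. The first lay 3.7 kb from chr2:47101101-47103400, which held an H1 control BrdU region. For Saos-2 the highest were the region on chromosome 20 shared with IMR90, followed by chr16:86257201-86259100, chr2:217970801-217972300, chr17:38600201-38602200 and chr12:124924201-124926000. At the last, the Saos-2 BrdU region chr12:124923301-124924300 was 1000 bp long and shared 100 bp with the H3K18ac region. At the other 4 the Saos-2 BrdU region was a single window.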

How the data were processed

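The authors deposited 6 lists of regions, 1 for each H3K18ac or BrdU library. Bowtie 0.12.7 and hg19 are named in the submitters' processing notes. What called the regions, at which threshold and with what use of the 6 inputs, is not given in these sources. Regions lie on a grid of 100 bp windows. The last column was read as a score given by the authors, per the deposited files with no stated unit, and was used only within its own list.

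The tools were pandas 2.3.3, scipy 1.17.1 and numpy 2.4.6 under Python 3.11.15, with matplotlib 3.10.9 for plots. An overlap is at least 1 bp. Gaps run from edge to edge. Intervals are Wilson 95%, and the limit for a count of 0 is 3 counts; both cover counting error only. On 2000 simulated regions, the planted overlap of 20% was recovered. The regions named are the 10 of highest score, the first and last of the 5 richest tiles, and the 5 of highest score in each BrdU list; the arrays, the tile on chromosome 16 and the regions in 3 or 4 BrdU lists were chosen after their values were seen. The class of regions and the comparisons were chosen with earlier results of these data known. Planned descriptions of genes, base composition and motifs were not run, since no hg19 annotation or genome was used here.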

Additional observations from a re-analysis of the deposited data

How the results depend on the processing

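Of 68 values under alternatives, 36 stayed within their interval or within 1.5 times the count; autosomes alone, stricter H3K18ac lists and other overlap rules left the number of regions between 6578 and 8759. That number became 4676 when an H1 region within 10 kb also removed a region, 21941 for 500 to 2900 bp and 2639 for 1500 to 2900 bp, by construction. With the 10 kb rule the BrdU overlap fell to 0.128% for IMR90, 0.128% for H1 control and 0.214% for Saos-2. Lengths of 500 to 2900 bp gave 0.237% for H1 control and 0.242% for Saos-2, and 1500 to 2900 bp gave 0.531% for Saos-2. In the order IMR90, H1 control, H1 knockdown and Saos-2, a BrdU region within 1 kb gave 0.891%, 0.891%, 0.223% and 0.835%, one within 10 kb gave 4.61%, 5.33%, 2.13% and 4.98%, and the central 500 bp gave 0.0557%, 0.209%, 0.0278% and 0.153%. The upper 50% of the BrdU lists by score gave 0.0975% for IMR90, 0.139% for H1 control and 0.139% for Saos-2. Measured between midpoints, 33.1% had an H1 region within 10 kb, 7.39% another IMR90 region within 1 kb, and 57.6% another region of the class within 10 kb. The first 2 became 22.1% and 87.8% in the upper 50% of both H3K18ac lists. Joining over 500, 3000 and 10000 bp, chosen like the 1 kb distance after the data had been seen, gave 90.1%, 79.4% and 64.1% in H1-free domains. A wider distance to BrdU can only raise a share, and the central 500 bp or the upper 50% of a BrdU list can only lower it. Midpoints lie farther apart than edges, so measuring between midpoints can only lower a share. Joining over longer gaps can only lower the share in H1-free domains. The causes of the other changes in shares were not tested. No paired analysis was possible because each group had 1 library.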

Other observations

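The narrower and wider IMR90-only regions had BrdU surroundings like those of the mid-width class. An IMR90 BrdU region lay within 50 kb of 17.7% (17.37 to 17.95) of the 64598 IMR90-only regions under 1000 bp and of 18.7% (15.2 to 22.8) of the 401 over 2900 bp, beside 17.2% of the mid-width class. Direct overlap with IMR90 BrdU was found in 55 (0.0851%), 5 (1.25%, 0.534 to 2.89) and 18 (0.251%) of them. The classes differ in length, and the overlaps were not corrected for it.

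The region of highest score, chr6:58778201-58779200, stood apart by its score per 100 bp window, which was 326.8. The next value in the class was 100.5, for chr11:8739701-8740800, which lay 400 bp from an H1 H3K18ac region. The nearest BrdU region to the former was 1267.3 kb away, in the H1 knockdown list, and the next IMR90-only mid-width region was 1426600 bp away. Repeats were not filtered out, and sequence at this position was not analysed here.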
